A study of Mus musculus with 36 samples.

Results

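The 33 genes described here are targets of the transcription factor p53 and genes of apoptosis, the ordered self-destruction of a cell, measured in the RNA of whole mouse embryos. They were chosen by name, as p53 itself (Trp53), its inhibitors, its best known target genes and the parts of the BCL2 and caspase machinery, and each gene was read through its probe of highest mean intensity over 36 arrays. A gene was kept when that intensity was 32 or more on at least 12 arrays. This left 26 of the 33, out of 9683 kept genes in all. Btg2, Eda2r, Perp and Xiap reached the minimum on 0 arrays and Pmaip1 on 10, just outside the limit, while Aen with 15 arrays and Mdm4 with 16 lay just inside it. Trp53 and Bax were paired with no probe in the annotation used and were not analysed here.

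The embryos were male, of the inbred strain C57BL/6J, and were taken 9.5 days post coitum. Their mothers drank water (Control), 10% (v/v) ethanol (Ethanol) or freebase nicotine at 100 µg/ml (Nicotine) by choice, between days 0.5 and 8.5, with 12 embryos in each of the 3 groups and 1 Illumina bead array per embryo. Litter and day of work are absent from the labels, so the p-values measure the spread between these embryos. Exposure ended 1 day before collection, and each array averages all tissues of an embryo, in which fewer cells of a type and less RNA per cell cannot be told apart.

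p53 is kept low in unstressed cells by Mdm2 and Mdm4 and accumulates after DNA damage or disturbed ribosome assembly. It then raises genes that stop division, such as Cdkn1a, genes that kill, such as Bbc3, Pmaip1 and Bax, and its own inhibitor Mdm2, which closes a feedback loop. In the mitochondrial route to death, proteins with a BH3 segment free Bax and Bak1 from their BCL2-type guards. Bax and Bak1 then open the outer mitochondrial membrane, cytochrome c joins Apaf1, and caspase 9 starts the caspase cascade. Death receptors such as Fas start from the cell surface through caspase 8, which can cut Bid and so join the mitochondrial route. Mouse embryos that lack Mdm2 or Mdm4 die unless p53 is removed as well, so the set point of this pathway matters in the mouse embryo.

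Promoter sequence was available from RefSeq (GRCm38.p6, 250 bases before to 50 after a gene's start) for 28 of the 33 genes. These windows were searched for a pair of p53 half-sites, the 10-base consensus of the p53 response element, with at most 1 base between the half-sites, the C and G of each core kept and at most 2 mismatches over the pair. The consensus reads the same on both strands, and no other motif was searched. Of all 32851 promoters in the table, 0.682% held such a pair. Among the members 4 genes did, each at 1 listed start, and the 28 genes have 42 promoters in the table. The members were chosen partly as known p53 targets, so no excess over all promoters is read from this count. Of the 4, Cdkn1a, Ccng1 and Gtse1 were measured. They are shown because they place the p53 letters beside the start of genes whose levels follow. Lower case is the surrounding promoter and capitals mark the matched run.
Cdkn1a: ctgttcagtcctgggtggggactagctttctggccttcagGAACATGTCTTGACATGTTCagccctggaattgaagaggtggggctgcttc
Ccng1: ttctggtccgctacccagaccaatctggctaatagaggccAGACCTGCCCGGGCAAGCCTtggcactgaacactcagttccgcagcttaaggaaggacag
Gtse1: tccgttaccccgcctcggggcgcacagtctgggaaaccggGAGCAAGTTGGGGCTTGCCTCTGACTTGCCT
The Cdkn1a window is chr17:29090888-29090978 on the plus strand, at 1 of the 2 starts listed for the gene, with the match 51 to 32 bases before that start. The Ccng1 window is chr11:40755422-40755521 on the minus strand, with the match 195 to 176 bases before the start. The Gtse1 window is chr15:85859905-85859975 on the plus strand, where 2 overlapping pairs ran from 1 base before the start to base 30 after it. Each had 1 mismatch in its best pair. A match describes letters in this window and is not a mapped site.

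Among the 36 embryos, those with replicate numbers 1 to 6 stood apart from those numbered 7 to 12 in all 3 groups, and 9.68% of the 16927 kept probes did not overlap between these 2 sets of 18. The 3 embryos numbered 6 stood apart again, lying all above or all below the other 33 for 11.2% of probes. Embryos of equal number deviated together (36 same-number pairs, lowest correlation 0.243, mean 0.589), so results are also given with replicate number as a block where that changes a call. These deviations still held the difference between the 2 sets, which embryos of equal number share. The correlations therefore do not tell the part of the number from that of the set. Markers of the embryo were present: the summed intensity of the 3 measured primitive globin genes was 29622 to 46796 in every embryo. Heart marker sums lay between 8308 and 24028 in 35 embryos and at 235 in the nicotine embryo numbered 3. Of the tube-forming nervous system markers, Sox2 was measured and Pax6, Pax3 and Sox1 reached the minimum on 0 arrays. Visceral yolk sac marker sums ran from 69.7 to 14223 in control, 75.4 to 12404 after ethanol and 66.8 to 22059 after nicotine, and placenta and decidua marker sums from 29.7 to 15067, 36.2 to 337 and 36.7 to 2099. For somite and tail bud markers 3 of 3 kept genes had a higher mean after nicotine than in control. Of these 0 passed without the block and 1 with it, beside 0.00591% and 1.15% of all probes. The median summed intensity was 1029 after nicotine against 769 in control. After ethanol 3 of 3 were also higher and 0 passed, with a median sum of 924. None of the 6 macrophage markers and none of the 4 named adult blood markers was kept. The part of these tissues in the differences below was not tested.

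In the fit without a block no member passed in either exposure, and the measured members lay on both sides of 0. With replicate number as a block 1 member, Bid, passed after nicotine. In the limma fit on log2(intensity + 16), with p-values adjusted over all 16927 probes and a threshold of 0.05, 0 of 26 members were called for ethanol against control, where 0.0% of all probes were called. For nicotine against control 0 of 26 were called, beside 0.00591% of all probes, and for ethanol against nicotine 0 of 26, beside 0.0%. At an unadjusted p under 0.05 the members numbered 0, 3 and 1 in these comparisons, and the shares over all probes were 1.05%, 6.51% and 4.93%. The median difference of the members was 0.00 for ethanol minus control (13 higher, 13 lower), 0.01 for nicotine minus control (14 higher, 12 lower) and -0.01 for ethanol minus nicotine (11 higher, 15 lower), against 0.00, 0.00 and 0.00 over all probes. The groups overlapped for all 26 members in all 3 comparisons, as for every kept probe (0.0% without overlap in each), so this says nothing particular to the members.

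With replicate number as a block 0, 1 and 0 members were called, beside 0.0%, 1.15% and 0.408% of all probes. The called member was Bid, higher after nicotine. At an unadjusted p the blocked fit gave 1, 6 and 4 members, or 3.85%, 23.1% and 15.4% of 26, beside 4.63%, 17.7% and 13.9% of all probes. The 2 exposures share their control embryos, so their values are set side by side below and not correlated.

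The fit also bounds what was missed. For ethanol the 95% intervals of all 26 members stayed within 0.5 of 0 on the log2 scale, as did those of 84.9% of all probes. This limit is a 1.41-fold change of intensity + 16, which is a larger change of intensity itself for dim members. For nicotine 23 of 26 stayed within it, beside 78.6% of all probes, and the members that reached beyond were Mdm4, Fas and Bid. For ethanol minus nicotine 23 of 26 did so, beside 79.5%, with Mdm4, Fas and Tnfrsf10b reaching beyond. Within 0.25, a 1.19-fold change of intensity + 16, lay 12, 11 and 14 members. With replicate number as a block 26, 25 and 25 members stayed within 0.5, beside 96.5%, 91.6% and 92.6% of all probes. Fas was the member beyond it in both comparisons with nicotine.

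**Figure D1:**
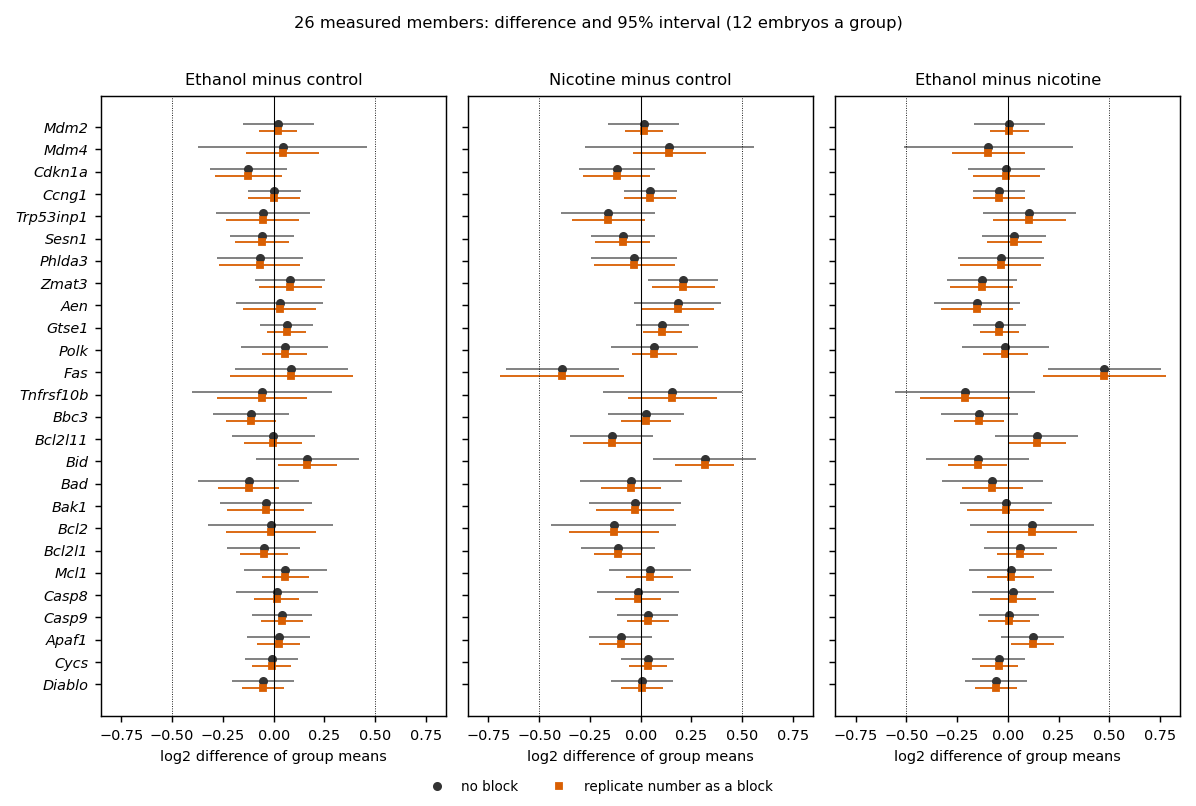
Difference of group means for the 26 measured members on the log2(intensity + 16) scale, with 95% intervals, without a block (dark circles) and with replicate number as a block (orange squares); 12 embryos a group, dotted lines at 0.5 either side of 0. Most intervals cross 0 in each panel, and Fas and Bid lie farthest out for nicotine.

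The measured inhibitors of p53 did not pass in any fit. Mdm2, the ubiquitin ligase that p53 itself raises, had an intensity of 1126 to 1541 in control (median 1288), 1035 to 1628 after ethanol (median 1364) and 1015 to 1678 after nicotine (median 1413). These ranges covered each other almost whole. The difference was 0.02 for ethanol (SE 0.0860, adjusted p = 1.0) and 0.02 for nicotine (SE 0.0860, adjusted p = 1.0), with 95% intervals of -0.15 to 0.20 and -0.16 to 0.19. Its other kept probe gave 0.03 and 0.00. Mdm4, the partner of Mdm2 that masks the p53 activation domain, was dim, at 9.0 to 59.9 over all embryos, and differed by 0.04 and 0.14, with wide intervals of -0.37 to 0.46 and -0.28 to 0.56.

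Of the p53 targets that arrest division, Cdkn1a, the p21 inhibitor of cyclin-dependent kinases, is a widely used readout of p53. Its intensity was 167 to 318 in control (median 202), 161 to 248 after ethanol (median 182) and 142 to 236 after nicotine (median 198). The groups overlapped, and the highest value was that of a control embryo, number 2. Cdkn1a differed by -0.12 after ethanol (SE 0.0929, 95% interval -0.31 to 0.06, lower in 7 of 12 same-number pairs) and by -0.12 after nicotine (interval -0.31 to 0.07, lower in 9 of 12), with adjusted p of 1.0 and 0.974. For ethanol the direction turned between the replicate sets, at -0.29 in numbers 1 to 6 and 0.05 in numbers 7 to 12 (unadjusted p of the difference between sets 0.0550, adjusted p = 1.0). For nicotine both sets gave -0.12. Its 2 other kept probes gave -0.12 and -0.10 for ethanol, and 0.07 and -0.02 for nicotine, so for nicotine the probes disagreed in sign.

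Ccng1, cyclin G1, another direct p53 target, read 773 to 1032 in control (median 937), 732 to 1078 after ethanol (median 923) and 799 to 1205 after nicotine (median 956). The differences were 0.00 (SE 0.0640, interval -0.13 to 0.13) and 0.05 (interval -0.08 to 0.18), among the narrowest of the members. Gtse1, which binds p53 and takes it out of the nucleus in dividing cells, read 929 to 1345, 1019 to 1401 and 1104 to 1568 with medians of 1168, 1214 and 1239. It was higher than the control of its number in 10 of 12 pairs after ethanol, by a mean of 0.06 (SE 0.0640), and in 9 of 12 after nicotine, by 0.11 (adjusted p = 0.878). Its other kept probe gave 0.07 and 0.15. The 3 genes whose promoters are printed above thus differed from control by -0.12 to 0.11, in both directions.

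Zmat3, an RNA-binding protein that p53 raises to shape splicing, had the largest positive difference after nicotine among the 9 kept targets of arrest, repair and stress control. Its intensity was 291 to 494 in control (median 404), 328 to 528 after ethanol (median 420) and 369 to 594 after nicotine (median 459). The ranges overlapped, with the nicotine embryos shifted upward. The nicotine difference was 0.21 (SE 0.0853, 95% interval 0.04 to 0.38, unadjusted p = 0.0190), higher in 9 of 12 pairs, and did not pass with an adjusted p of 0.587, or 0.142 with the block. Ethanol gave 0.08, and ethanol minus nicotine was -0.13, lower in 9 of 12 pairs (adjusted p = 1.0 for both). Zmat3 had 1 probe.

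Aen, a nuclease that p53 raises during apoptosis, reached the intensity minimum on 3 control, 5 ethanol and 7 nicotine arrays. Its medians were 26.4, 27.0 and 36.1, and the nicotine difference of 0.18 (SE 0.105, higher in 9 of 12 pairs) had an adjusted p of 0.859. The remaining targets of this kind pointed both ways after nicotine. Trp53inp1, a cofactor that p53 raises under stress, differed by -0.16 (SE 0.114), and Sesn1, a sestrin that restrains TORC1, by -0.09 (SE 0.0775). Phlda3, an Akt inhibitor, differed by -0.03 (SE 0.104) and Polk, a polymerase that copies past damaged bases, by 0.07 (SE 0.106). After ethanol these 4 differed by -0.05, -0.06, -0.07 and 0.05. Over the 9 kept targets of arrest, repair and stress control, 5 were higher and 4 lower in each exposure, and 0 were called.

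**Figure D2:**
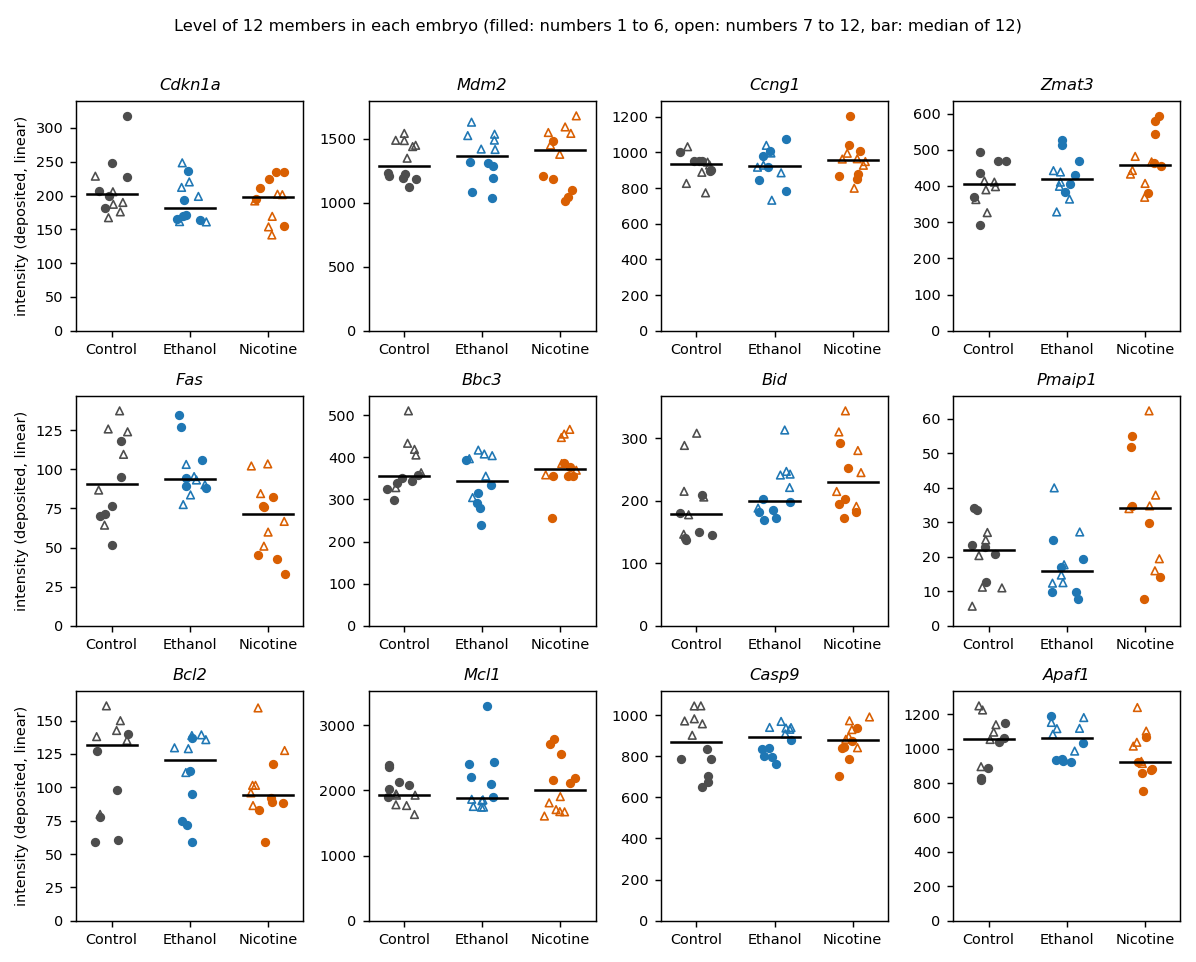
Deposited intensity (linear axis from 0) of 12 members in each embryo, with filled circles for replicate numbers 1 to 6, open triangles for numbers 7 to 12 and a bar at the median of 12. The 3 groups overlap in each panel, Cdkn1a with medians of 202, 182 and 198, and for Mdm2, Mcl1 and Casp9 the 2 symbols part more than the groups do.

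Fas, the death receptor that p53 and inflammatory signals raise, was the member farthest from control. Its intensity was 51.5 to 137 in control (median 90.9), 77.5 to 134 after ethanol (median 93.9) and 33 to 104 after nicotine (median 71.4). The nicotine embryos reached lower than either other group, and the 3 lowest of all were nicotine embryos numbered 1, 2 and 3. The nicotine difference was -0.39 (SE 0.137, 95% interval -0.67 to -0.11, unadjusted p = 0.00776), lower in 9 of 12 pairs, with an adjusted p of 0.430, or 0.167 with the block. The pair numbered 2 differed by -1.45 and the pair numbered 9 by 0.56. Ethanol differed by 0.09 from control (SE 0.137, adjusted p = 1.0) and by 0.47 from nicotine (95% interval 0.20 to 0.75, unadjusted p = 0.00142, higher in 10 of 12 pairs), which did not pass either (adjusted p = 0.424, and 0.148 with the block). Its 3 other probes were under the minimum, so Fas rests on 1 dim probe.

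Tnfrsf10b, the mouse TRAIL death receptor, read 17.8 to 104 in control, 32.9 to 113 after ethanol and 50.8 to 106 after nicotine, with medians of 70.4, 67.1 and 73.2. The groups overlapped, and the differences were -0.06 (SE 0.169) and 0.16 (SE 0.169). Casp8, the caspase that these receptors activate, differed by 0.01 and -0.01 (SE 0.0994 for both, 95% intervals -0.19 to 0.22 and -0.21 to 0.19). Tradd, an adaptor of the TNF receptor, is not a member. It was the only gene of the related lists called without a block or with replicate number as a block. Its intensity was 43.1 to 74.0 in control (median 58.6), 36.5 to 63.8 after ethanol (median 48.9) and 21.0 to 57.6 after nicotine (median 42.3). It was lower after nicotine by -0.40 (SE 0.0997, lower in 11 of 12 pairs) with an adjusted p of 0.216, and of 0.0334 with the block, and its second probe reached the minimum on 3 arrays. With 1 number left out of the blocked fit at a time, Tradd passed in 3 of 12 cases (without 1, 5 or 9), with adjusted p between 0.0132 and 0.119.

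Bid, the BH3-only protein that links death receptors to the mitochondria, was the 1 member called in any fit. Its intensity was 138 to 308 in control (median 179), 169 to 313 after ethanol (median 200.1) and 173 to 344 after nicotine (median 230). The ranges overlapped widely; the 3 lowest embryos were controls numbered 2, 5 and 6, and the highest was a nicotine embryo, number 7. The nicotine difference was 0.31 (SE 0.125, 95% interval 0.06 to 0.57), which is 1.24-fold on this scale, with an adjusted p of 0.558. With replicate number as a block the SE was 0.0713 and Bid passed (adjusted p = 0.0286), the nicotine embryo being higher in 11 of 12 pairs. It passed in 7 of 12 blocked fits that each left out 1 number, and missed without number 2 (adjusted p = 0.109), 6 (0.0738), 7 (0.0545), 10 (0.0606) or 12 (0.0622). The difference was 0.39 in numbers 1 to 6 and 0.24 in numbers 7 to 12. Ethanol differed by 0.17 (SE 0.125, higher in 10 of 12 pairs, adjusted p = 1.0, and 0.990 with the block), and ethanol minus nicotine was -0.15 (adjusted p = 1.0). Its second probe was under the minimum.

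**Figure D3:**
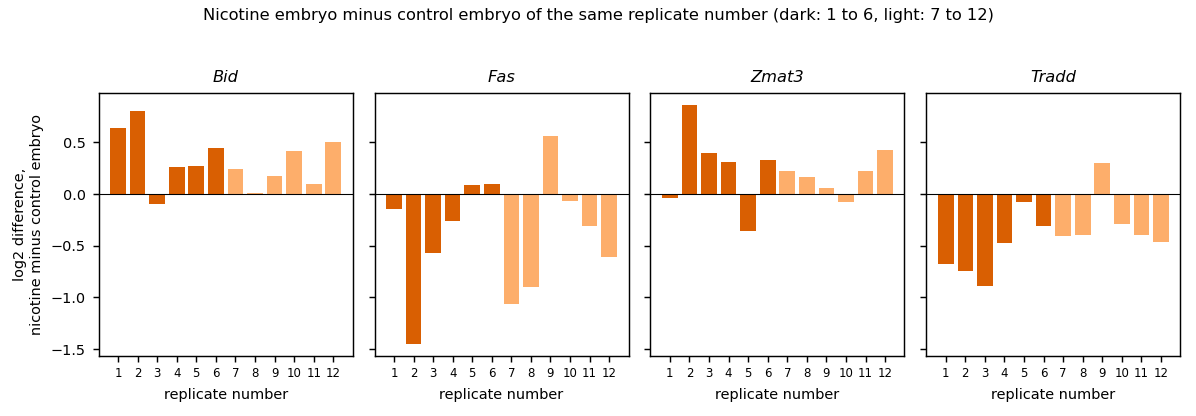
Log2 difference of the nicotine embryo minus the control embryo of the same replicate number, for Bid, Fas, Zmat3 and Tradd (dark bars numbers 1 to 6, light bars 7 to 12). Bid is above 0 in 11 of 12 pairs and Tradd below 0 in 11 of 12, while Fas spans -1.45 to 0.56.

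No other BH3-only gene passed in either fit. Bbc3, the Puma protein that is a main killer downstream of p53, read 299 to 510.5 in control (median 355), 239.7 to 417 after ethanol (median 345) and 255 to 466 after nicotine (median 373). It differed by -0.11 after ethanol (SE 0.0927, 95% interval -0.30 to 0.08, lower in 9 of 12 pairs) and by 0.03 after nicotine (95% interval -0.16 to 0.21), with adjusted p of 1.0 for both, and ethanol minus nicotine was -0.14 (lower in 9 of 12 pairs, adjusted p = 1.0). Its second kept probe, a dim one, gave 0.05 and 0.00. Bcl2l11, the Bim protein that kills when growth factors are withdrawn, differed by 0.00 and -0.14 (SE 0.10), with -0.26 and -0.04 for nicotine at its 2 other kept probes. Bad, which growth factor signalling holds inactive, differed by -0.12 and -0.05 (SE 0.124).

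Pmaip1, the Noxa protein and a p53 target, was left out by the filter, which it missed by 2 arrays: it reached the minimum in 2 control, 1 ethanol and 7 nicotine embryos. Its intensity was 5.66 to 34.2 in control (median 21.9), 7.74 to 39.9 after ethanol (median 15.8) and 7.69 to 62.3 after nicotine (median 34.2). Fitted over all 45281 probes with no filter, nicotine minus control was 0.38 (SE 0.171, unadjusted p = 0.0333, adjusted p = 0.819) and ethanol minus nicotine was -0.50 (unadjusted p = 0.00605, adjusted p = 0.748). The other 4 members under the minimum differed by -0.14 to 0.10 from control in that fit, none with an adjusted p below 0.802. Of these Perp, also a p53 target, went the other way from Pmaip1 after nicotine, at -0.12 (SE 0.0514, unadjusted p = 0.0277, adjusted p = 0.802). It read only 3.34 to 11.3 over all embryos.

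Bak1, a pore former, read 23.2 to 88.9 over all embryos and differed by -0.04 and -0.03 (SE 0.112). Of the survival proteins, Bcl2 read 59.3 to 161 in control (median 131), 58.7 to 139 after ethanol (median 120.5) and 59.4 to 160 after nicotine (median 94.0). The ranges were nearly the same while the medians were not, and the differences were -0.01 (SE 0.151) and -0.13 (95% interval -0.44 to 0.17, lower in 9 of 12 pairs in each exposure). Its 3 other kept probes gave -0.04 to 0.05 for ethanol and -0.20 to 0.09 for nicotine. Mcl1, a short-lived guard of Bak1, read 1630 to 2387 in control (median 1936), 1742 to 3296 after ethanol (median 1881) and 1606 to 2794 after nicotine (median 2007), and differed by 0.06 and 0.04 (SE 0.10). Bcl2l1, which encodes Bcl-xL, differed by -0.05 and -0.11 (SE 0.0890).

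The caspase activators lay close to control and 0 were called in either fit. Casp9, the caspase that Apaf1 activates, read 649.9 to 1044 in control (median 868), 759.7 to 969 after ethanol (median 893) and 702 to 991 after nicotine (median 877). It differed by 0.04 and 0.03 (SE 0.0734, 95% intervals -0.11 to 0.19 and -0.11 to 0.18). Its second kept probe, a dim one, gave -0.08 and -0.06. Apaf1, the core of the apoptosome, differed by 0.02 and -0.10 (SE 0.0769), with medians of 1058, 1059 and 923, and its 2 other kept probes gave -0.23 and -0.11 for nicotine. For Apaf1 ethanol minus nicotine was 0.12 (higher in 10 of 12 pairs, adjusted p = 1.0, and 0.292 with the block). Cycs, cytochrome c, differed by -0.01 and 0.03 (SE 0.0648), and Diablo, which relieves caspases of their inhibitors, by -0.05 and 0.01 (SE 0.0749). Over this group of 5 the differences lay between -0.10 and 0.04.

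The wider p53 network gave no call. Of 31 other p53 target genes 22 were measured and 0 were called in either fit. None reached an unadjusted p under 0.05 after ethanol or nicotine, with or without the block, although with the block 17.7% of all probes did after nicotine. Their median difference was 0.00 after ethanol and 0.02 after nicotine. Sfn, the cell cycle inhibitor 14-3-3 sigma, had the smallest p for ethanol, at -0.29 (SE 0.160, adjusted p = 1.0), followed by Igfbp3, an IGF-binding protein, at 0.15 (SE 0.159). For nicotine these were Pidd1, a scaffold for caspase 2, at 0.11 (SE 0.0996), and Ercc5, an excision repair nuclease, at -0.06 (SE 0.0575).

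Of 22 upstream regulators of p53, 16 were measured and 0 were called in either fit. Their medians were 0.03 and 0.00, and after nicotine 8 were higher and 8 lower. At an unadjusted p under 0.05 there were 1 of 16 after nicotine, beside 6.51% of all probes, and 6 of 16 with the block, beside 17.7%. Of those 6, 3 were higher and 3 lower. Wrap53, named for its overlap with the p53 gene, differed by 0.18 after nicotine (SE 0.0737, higher in 10 of 12 pairs, adjusted p = 0.605, and 0.104 with the block). Daxx, a histone chaperone that binds p53 and Mdm2, differed by 0.16 (SE 0.0865, higher in 10 of 12, adjusted p = 0.832, and 0.0775 with the block). The largest difference in size after nicotine, singled out after the values were seen, was that of Crebbp, a p53 acetyltransferase, at -0.28 (SE 0.194, adjusted p = 0.942, and 0.214 with the block). For ethanol the smallest p belonged to Trp53bp1, which marks broken DNA, at 0.06, and Hipk2, a kinase of p53, at 0.07.

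Of 36 other apoptosis genes 24 were measured. After nicotine 0 were called without the block, beside 0.00591% of all probes, and 1, Tradd, with it, beside 1.15%. In the other comparisons 0 were called. At an unadjusted p under 0.05 there were 2 of 24 after nicotine, beside 6.51% of all probes, and 3 of 24 with the block, beside 17.7%. After ethanol there were 0 of 24 and, with the block, 1 of 24, beside 1.05% and 4.63%. The medians were -0.01 for ethanol and 0.00 for nicotine. Casp6, an executioner caspase, differed by -0.20 after nicotine (SE 0.0983, lower in 10 of 12 pairs, adjusted p = 0.767, and 0.109 with the block). For ethanol the smallest p belonged to Bcl2l2, a survival protein, at 0.10 (SE 0.0616), and Htra2, a mitochondrial protease, at -0.11 (SE 0.0584). Of 12 cell division genes 7 were measured, 0 were called and 0 reached an unadjusted p under 0.05 in either fit. After ethanol they differed by -0.05 to 0.05, with Plk1, a mitotic kinase, at 0.05 and Aurkb, another, at -0.05. After nicotine the range was -0.07 to 0.06, with Cdk1, the mitotic cyclin-dependent kinase, at -0.06 and Cdc20, which triggers anaphase, at -0.07.

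**Figure D4:**
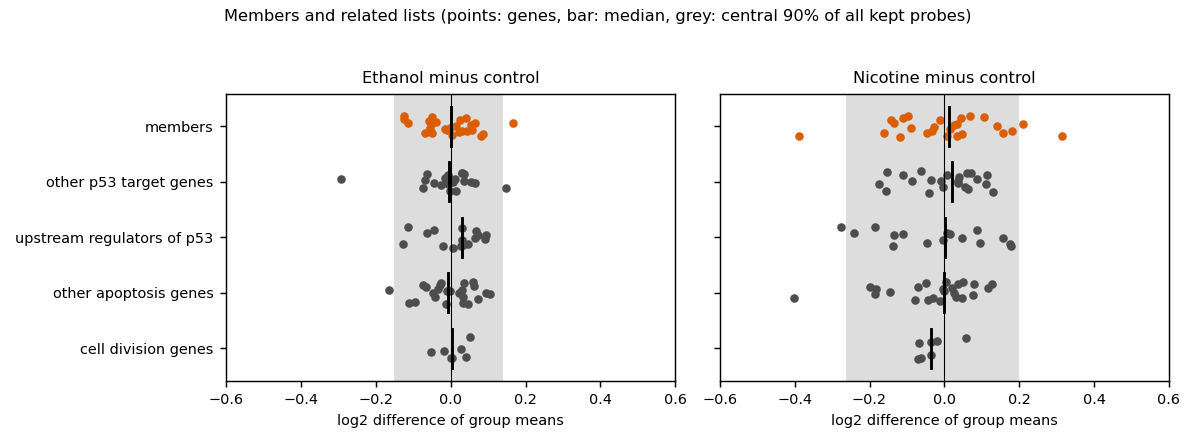
Log2 difference from control of each measured gene (points) in the member list and 4 related lists, with a bar at the list's median; the grey band holds the central 90% of all kept probes (-0.15 to 0.14 for ethanol, -0.26 to 0.20 for nicotine). The medians lie between -0.04 and 0.03, and for nicotine Fas, Bid and Tradd lie farthest from 0.

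The members, like all probes, differed more between the sets of replicate numbers than between drinks. Between numbers 1 to 6 and 7 to 12 their median absolute difference was 0.24, beside 0.25 over all probes. It was 0.05 between ethanol and control and 0.09 between nicotine and control, beside 0.05 and 0.08 over all probes. Between the sets 13 of 26 members, Mdm4 among them, differed by over 0.25, or 50%, beside 50.5%. For 0 of 26 the sets did not overlap at all, beside 9.68% of probes. Mdm4 was kept through numbers 1 to 6 alone, where it reached the minimum in 16 of 18 embryos, against 0 of 18 in numbers 7 to 12. The filter itself thus favoured its difference between the sets, and no size is given for it. Tnfrsf10b (0.48), Polk (0.44) and Mcl1 (0.36) were higher in numbers 1 to 6, while Bcl2 (-0.42), Trp53inp1 (-0.36), Bid (-0.34), Bcl2l11 (-0.34) and Mdm2 (-0.33) were lower there. Cdkn1a (0.11), Ccng1 (0.05) and Phlda3 (0.01) differed little. What the numbers stand for is not given in the labels.

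The treatment differences were compared between these sets with an interaction term. No member passed for ethanol or nicotine, where 0.0% and 0.0% of all probes passed. At an unadjusted p under 0.05 the members numbered 2 for each, or 7.69% of 26, beside 2.30% and 6.94% of all probes. For ethanol these were Fas, which differed by 0.36 in numbers 1 to 6 and by -0.19 in numbers 7 to 12, and Casp9, at 0.15 and -0.07. For nicotine they were Casp9, at 0.17 and -0.10, and Bcl2l1, at -0.28 and 0.05. The 2 values for Casp9 share their controls.

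The embryos numbered 6 lay outside the other 33 for 3 of 26 members, or 11.5%, beside 11.2% of all probes. Bad was at 388, 337 and 410 in the control, ethanol and nicotine embryo numbered 6, and at 453 to 947 elsewhere. Bak1 was at 37.5, 23.2 and 25.5 there, against 39.0 to 88.9. Casp8 was at 249, 235 and 253, against 127 to 226. Mcl1 was the highest of 12 in each group at number 6, while for Cdkn1a, Mdm2 and Bid number 6 was neither the highest nor the lowest of its group in any of the 3.

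**Figure D5:**
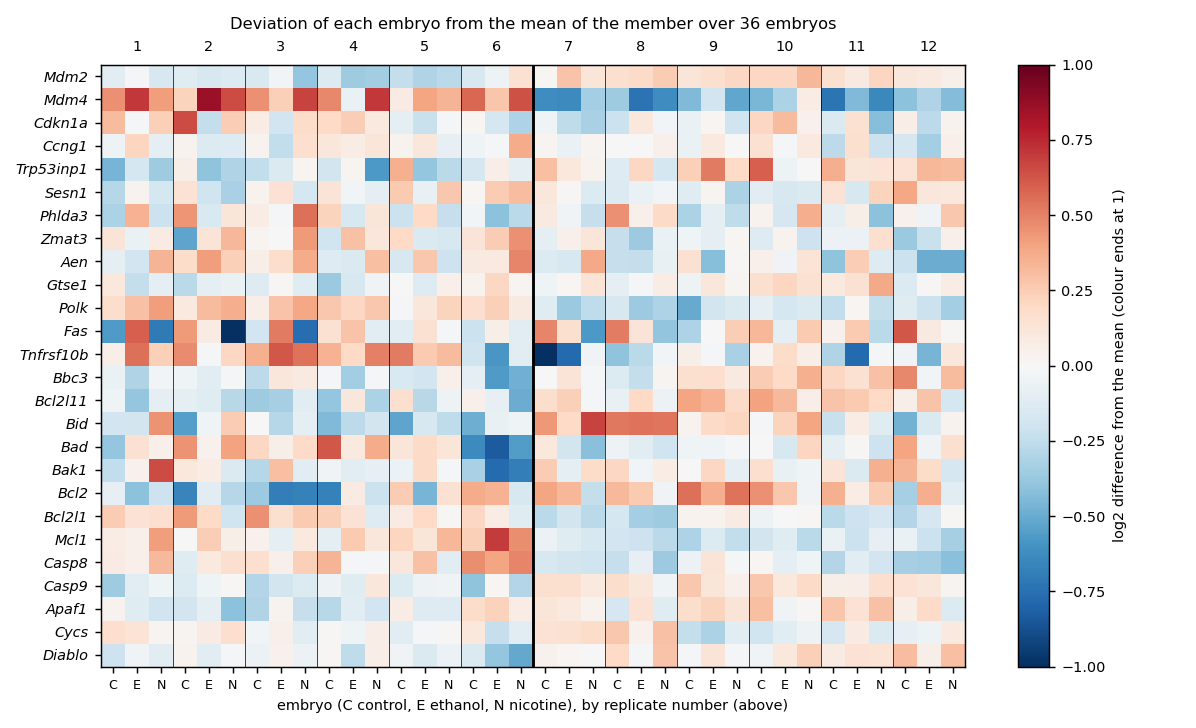
Deviation of each embryo from the mean of the member over 36 embryos (log2 scale, red above, blue below), with embryos ordered by replicate number and then by group; the thick line divides numbers 1 to 6 from 7 to 12. Polk is mostly red left of that line and mostly blue right of it, and the embryos numbered 6 are blue for Bad and Bak1.

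Among themselves the p53 targets had a median correlation near 0 over the embryos. Correlations were taken on deviations from the group means within each set of 18 embryos. Embryos of equal number deviated together over both sets, and those numbered 6 stood apart within theirs. Fewer than 18 may therefore be independent, and the permutation p-values may be too small. How far embryos of equal number correlate within a set was not computed. Over the 78 pairs of 13 measured targets the median Pearson r was 0.00 in numbers 1 to 6 and 0.06 in numbers 7 to 12, and 12.8% and 10.3% of pairs had an r of at least 0.5 in size. Over all 325 pairs of the 26 members the shares were 18.5% and 13.2%, and over all pairs of the 9683 genes they were 21.6% and 10.5%.

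The pair with the largest r in size among numbers 1 to 6 was Bad and Apaf1 (r = -0.87, permutation p = 0.00016, adjusted 0.0208; rho = -0.85, permutation p = 0.00013). It gave r = -0.79 without the 2 embryos farthest from the median of Bad, -0.67 without the embryos numbered 6 (permutation p = 0.0550) and -0.16 in numbers 7 to 12. In numbers 7 to 12 the pair was Bcl2l11 and Apaf1 (r = 0.82, permutation p = 0.00052, adjusted 0.0344; rho = 0.81, permutation p = 0.00053), at r = 0.69 without the 2 embryos farthest from the median of Bcl2l11 and 0.33 in numbers 1 to 6. Adjustment was over 650 correlations, from 100000 resamples, and 13 pairs passed in numbers 1 to 6, 2 in numbers 7 to 12 and 0 in both. The share passing among pairs of all genes was not computed, so these counts say nothing particular to the members.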

How the data were processed

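Each of the 36 embryos has 1 deposited intensity per probe, a linear value; per the submitters' processing notes the authors used GenomeStudio 1.9.0. How background was removed and arrays were normalized is not given in the sources used here. The values are alike between arrays (median intensity 10.7 to 10.8 on each), so no further normalization was applied. A second file of signals holds 72 signal and detection columns that match no sample label and were not used. As detection values were therefore unusable, a probe was kept if its intensity was 32 or more on at least 12 of 36 arrays, leaving 16927 of 45281. Of all probes 34885 had 1 gene symbol, 18 several and 10378 none; symbols were updated through Entrez gene numbers. Arrays have no total count, and their number limits the precision.

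Differences were tested on log2(intensity + 16), which understates changes of dim probes, with limma 3.58.1 in R 4.3.3 (lmFit and eBayes, two-sided, 33 residual degrees of freedom), with Benjamini-Hochberg adjustment across all kept probes and a threshold of 0.05. A second fit used replicate number as a block (22 degrees of freedom), since the deviations of all 36 same-number pairs correlated above 0.1. This pairing comes from the data, not the labels, and the deviations included the difference between the replicate sets. The fit without a block was tested on simulated arrays with independent noise, and the promoter search on planted sites. The simulated arrays lack the shared deviations of same-number embryos, and the blocked fit was not tested in this way. Embryos were grouped by their titles. The members and the related lists were chosen with earlier results of these data known. Values are given for members past the threshold, for the 4 of smallest p in each comparison and for a fixed set of central genes; in each list, for called genes and the pair of smallest p. Correlations used 100000 permutations within groups (numpy 2.4.6).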

Additional observations from a re-analysis of the deposited data

How the results depend on the processing

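The number of called probes depended on the block. For nicotine against control 1 probe passed without a block, 194 with replicate number as a block and 3 with the replicate set as a block. With only numbers 1 to 6, only numbers 7 to 12, no filter on dim probes or array weights it was 0, and 0 without replicate 6. Leaving 1 number out of the blocked fit gave 0 to 256 probes (0 without number 6 or without number 7, and 1 without number 2) and 0 to 1 members, an alternative chosen after seeing the data. Of the members 1, Bid, passed with the replicate block. For ethanol against nicotine 0 probes passed, 69 with the replicate block and 0 to 178 with 1 number left out of it. For ethanol against control 0 probes and 0 members passed in every alternative run, and in the comparison of ethanol with nicotine 0 members. The block changed no other call of a member. Over every alternative run Bid stayed at 0.24 to 0.39, Fas at -0.47 to -0.25 and Zmat3 at 0.15 to 0.26 for nicotine, and Cdkn1a at -0.15 to -0.02. For ethanol Cdkn1a ranged from -0.29 to 0.05 and Fas from -0.19 to 0.36, the outer values coming from the 2 replicate sets. The cause was not tested. The planned background correction (normexp) was not run, because its columns match no sample. Dim members such as Fas, Mdm4, Aen and Pmaip1 lie near the array's background, where the + 16 shrinks differences.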
